A study of Cavia porcellus with 12 samples.

Results

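The circadian clock genes of the liver were compared between guinea pigs with non-alcoholic steatohepatitis (NASH) and controls, gene by gene and animal by animal. The list held 10 genes: *ARNTL* (also called BMAL1), *CLOCK*, *PER1*, *PER2*, *PER3*, *CRY1*, *CRY2*, *NR1D1*, *NR1D2* and *DBP*. Those that are rows of the deposited table of expression values were taken, which gave 8 of the 10 out of 11896 genes in all, and *PER3* and *CRY2* were not analysed here. Of the 8, 7 had a row of reads to themselves. The row of *DBP* (locus MSTRG.21382) also carried the symbols *RPL18*, a ribosomal protein, and *MAMSTR*, so its value could not be assigned to *DBP* alone and is called the *DBP* row below.

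Liver RNA from the left lateral lobe was sequenced in 6 animals per group, all of them female Dunkin Hartley guinea pigs that were 10 weeks old on arrival and spent 25 weeks on their diet after 1 week of acclimatisation. The NASH group ate a high-fat diet with added sucrose and cholesterol and was picked for bridging fibrosis, whereas Control animals ate chow and were drawn at random from animals free of NASH and fibrosis. All 12 animals were anaesthetised with a tiletamine, zolazepam, xylazine and butorphanol mix and isoflurane before they were killed, and the livers were not perfused, so that blood was part of each sample. Each sample was 1 animal, named here by the number in its label (Control 5, 10, 31, 32, 45 and 56, and NASH 2, 9, 11, 20, 41 and 65). The hour at which each animal was killed, the light schedule and the feeding state at death are not given in the sources used here, and neither is a batch.

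The clock is a loop of transcription and translation that runs in nearly every cell. The proteins ARNTL and CLOCK pair up, bind E-box elements and switch on the PER, CRY, NR1D and *DBP* genes. The PER and CRY proteins then hold the ARNTL and CLOCK pair back, and the nuclear receptors NR1D1 and NR1D2 (REV-ERBα and REV-ERBβ) repress *ARNTL* in competition with the ROR receptors. In liver the loop is set by feeding, glucocorticoids and body temperature as well as by the central clock. *ARNTL* and its target *NR1D1* peak at opposite phases of the day, so a single time of sampling shows each gene at 1 point of its cycle.

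Values are in CPM, the counts of a gene relative to its library's size, after scaling of these sizes by the TMM method of edgeR. The libraries held between 16980274 and 28636467 counts in Control and between 23704607 and 33091460 in NASH, and each clock gene had between 166 and 8160 counts in an animal. Group differences are log2 fold changes, NASH over Control, with their standard error (SE) from edgeR's quasi-likelihood test, and a gene was called where its Benjamini-Hochberg adjusted p-value over all 11896 genes was under 0.05. The files gave no gene lengths, so levels were compared between animals and not between genes. The hepatocyte marker *ALB* stood at 24040 CPM or more in every animal.

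Of the 8 clock genes, 3 were lower in NASH, 0 were higher and 5 were not called. The genes that fell were the repressor genes *PER1*, *PER2* and *CRY1*, by between 1.53-fold and 1.79-fold. The activator gene *CLOCK* had the same mean in both groups, and *ARNTL*, *NR1D1*, *NR1D2* and the *DBP* row were not called. In the whole dataset 53.9% of genes were called, 26.0% as lower and 27.9% as higher, so that the share of clock genes called (37.5%) was under that of all genes, and the share called lower was the same 37.5%. The log2 fold changes had a median of −0.48 over the 8 clock genes, −0.61 over the 7 with a row of their own and 0.00 over all genes. *CRY1* was the 1 clock gene whose groups did not overlap, which 33.7% of all genes showed in either direction and 15.3% in the lower direction. With libraries scaled by their size alone, 7603 genes were higher and 911 lower (3318 and 3093 with TMM), and of the clock genes *CRY1* was lower and *CLOCK* and the *DBP* row higher.

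**Figure D1:**
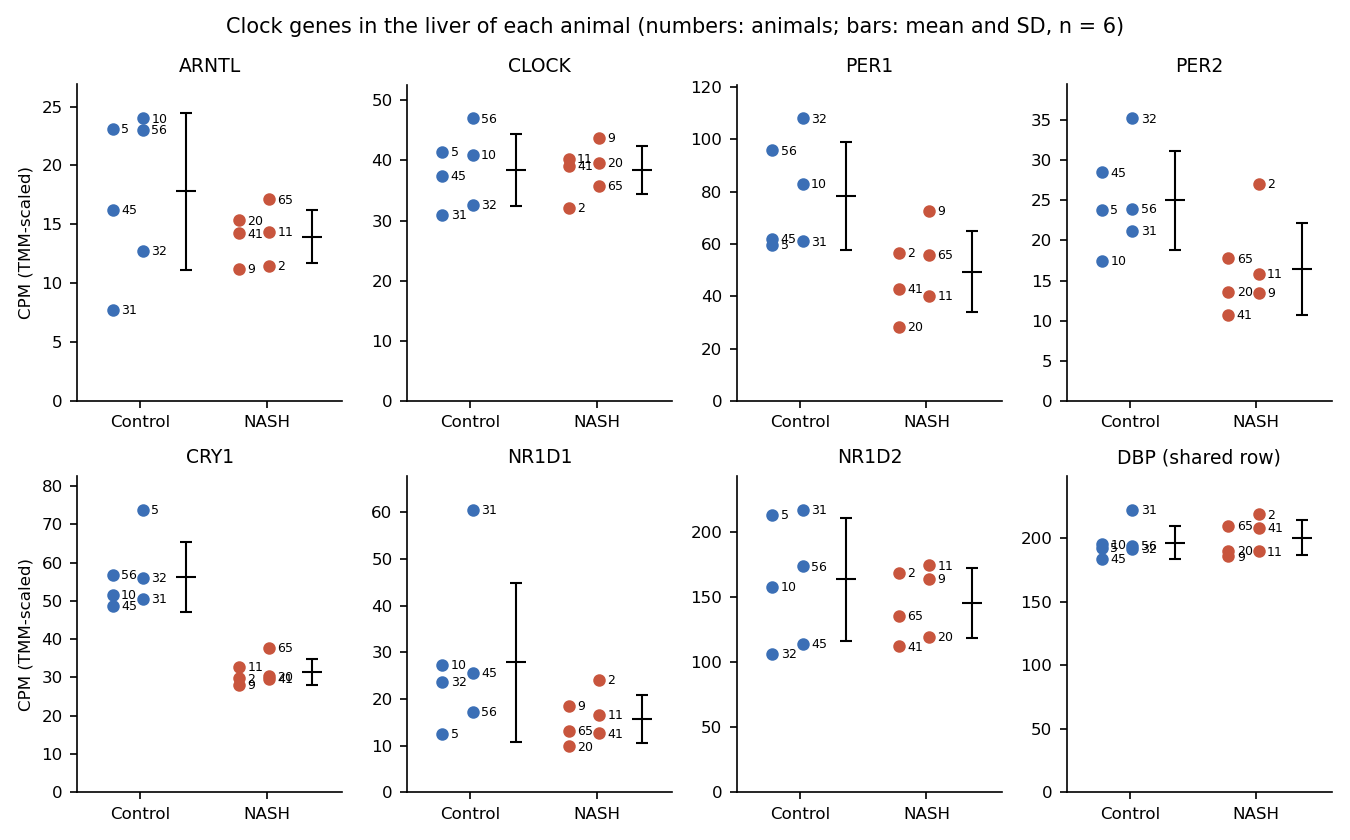
Level of each clock gene in each animal, in CPM scaled by TMM on a linear axis from 0, with a point for every animal, its number beside it, and the mean and SD of the 6 animals of a group as a bar. All 6 NASH animals lie below all Control animals for *CRY1*, 5 of 6 do for *PER1* and 4 of 6 for *PER2*, while the points of *CLOCK* and of the *DBP* row, which *RPL18* and *MAMSTR* share, cover the same range in both groups.

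*CRY1*, which encodes the cryptochrome that represses the ARNTL and CLOCK pair most strongly, lay between 48.8 and 73.7 CPM in Control animals (median 53.7) and between 28.2 and 37.8 CPM in NASH animals (median 30.0). Control 5 stood above the other controls, which kept to 48.8 to 56.8 CPM, and NASH 65 was the highest of its group. The mean was 56.2 ± 9.13 CPM (SD, n = 6) in Control and 31.4 ± 3.46 CPM (SD, n = 6) in NASH, a 1.79-fold difference. *CRY1* fell by 0.84 on the log2 scale (SE 0.11), with an adjusted p-value of 3.207e-05 by edgeR. The call held when each animal was left out in turn, with log2 fold changes from −0.91 to −0.75, and when libraries were scaled by their size alone (−0.36, adjusted p = 0.003796).

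*PER1*, a repressor gene that also responds quickly to glucocorticoids and other stimuli, lay between 59.7 and 108.0 CPM in Control animals (median 72.5) and between 28.4 and 72.6 CPM in NASH animals (median 49.2). All NASH animals but NASH 9 lay below every control, and the highest animals were Control 32 and NASH 9. Its mean was 78.3 ± 20.6 CPM (SD, n = 6) in Control and 49.3 ± 15.5 CPM (SD, n = 6) in NASH. *PER1* fell by 0.67 on the log2 scale (SE 0.22, edgeR adjusted p = 0.02299). Without Control 32 the log2 fold change was −0.55 and the adjusted p-value 0.05443, so that it was not called, while the call held without each of the other 11 animals. With library size alone it was −0.20 (adjusted p = 0.4344).

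*PER2*, the partner repressor that holds the PER complex together, lay between 17.5 and 35.2 CPM in Control animals (median 23.9) and between 10.7 and 27.0 CPM in NASH animals (median 14.7). Control 32 was again the highest control, whereas NASH 2 stood apart in its group, in which the others kept to 17.8 CPM or less. The mean was 25.0 ± 6.17 CPM (SD, n = 6) in Control and 16.4 ± 5.73 CPM (SD, n = 6) in NASH. *PER2* fell by 0.61 on the log2 scale (SE 0.22, edgeR adjusted p = 0.03166). This call was the least stable of the 3: it held in 6 of the 12 fits that left an animal out, with log2 fold changes from −0.81 to −0.49. It was lost without Control 32 (−0.49), Control 45 (−0.57), NASH 9 (−0.56), NASH 11 (−0.60), NASH 20 (−0.56) or NASH 41 (−0.51), and with library size alone it was −0.13 (adjusted p = 0.6176).

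*NR1D1*, the receptor that represses *ARNTL*, lay between 12.6 and 60.5 CPM in Control animals (median 24.6) and between 9.85 and 24.1 CPM in NASH animals (median 14.8). Control 31 stood above the other controls, which ranged from 12.6 to 27.4 CPM and overlapped with the NASH animals. The mean was 27.8 ± 16.9 CPM (SD, n = 6) in Control and 15.8 ± 5.10 CPM (SD, n = 6) in NASH. The log2 fold change of −0.82 (SE 0.34) was close in size to that of *CRY1* but was not called (edgeR adjusted p = 0.0567). Its size depended on Control 31, without which it was −0.44 (adjusted p = 0.1603). It was called without Control 5 (−0.97, adjusted p = 0.02254), without Control 56 (−0.93, adjusted p = 0.04191), without NASH 2 (−0.99, adjusted p = 0.03311) and with DESeq2 in place of edgeR (−0.82, adjusted p = 0.02682).

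*NR1D2*, the paralogue of *NR1D1*, ran from 106.3 to 217.2 CPM in Control animals (median 165.8) and from 112.3 to 174.5 CPM in NASH animals (median 149.7). The groups overlapped, with Control 5 and Control 31 above and Control 32 and NASH 41 at the low end. The log2 fold change was −0.17 (SE 0.19, edgeR adjusted p = 0.4783), and it turned to 0.31 (adjusted p = 0.161) with library size alone.

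*ARNTL*, the activator that the loop cannot run without, lay between 7.73 and 24.0 CPM in Control animals (median 19.6) and between 11.2 and 17.1 CPM in NASH animals (median 14.3). All 6 NASH animals lay inside the range of the controls, in which Control 5, 10 and 56 stood at 23.0 to 24.0 CPM and Control 31 and 32 at 7.73 and 12.8 CPM. The mean was 17.8 ± 6.68 CPM (SD, n = 6) in Control and 14.0 ± 2.28 CPM (SD, n = 6) in NASH. The log2 fold change of −0.35 (SE 0.24) was not called (edgeR adjusted p = 0.246). Without Control 31 it was −0.50 and called (adjusted p = 0.02994), and with library size alone it was 0.13 (adjusted p = 0.6242).

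*CLOCK*, the partner of *ARNTL*, lay between 30.96 and 47.0 CPM in Control animals (median 39.2) and between 32.1 and 43.8 CPM in NASH animals (median 39.3). Its mean was 38.4 ± 6.00 CPM (SD, n = 6) in Control and 38.4 ± 4.002 CPM (SD, n = 6) in NASH. The log2 fold change was 0.00 (SE 0.11, edgeR adjusted p = 0.9828), and with library size alone it was 0.48 (adjusted p = 0.001353). That scaling moved the median of all genes to 0.48 as well, so *CLOCK* kept its place at the median of the table.

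The *DBP* row lay between 183.4 and 222.2 CPM in Control animals (median 193.2) and between 185.6 and 218.7 CPM in NASH animals (median 199.0), with a log2 fold change of 0.03 (SE 0.07, edgeR adjusted p = 0.7478). *DBP* is the D-box factor with one of the widest daily swings known in liver, but the row also counts reads of *RPL18*, and nothing in the table separates them.

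The spread between animals of a group was then described, since a gene with a wide daily cycle differs between animals killed at different hours. It was taken as the SD of log2 CPM (with a prior count of 2) over the 6 animals. *NR1D1* and *ARNTL* were the most variable clock genes of Control, with SDs of 0.76 and 0.64, above those of 92.2% and 89.5% of all genes. *NR1D2* (0.44), *PER1* (0.37) and *PER2* (0.35) followed, and *CLOCK* (0.23) and *CRY1* (0.22) were near the median of all genes, 0.23. In NASH the order differed: *PER1* (0.47), *NR1D1* (0.46) and *PER2* (0.45) had the largest SDs, above those of 87.9%, 87.0% and 86.9% of all genes, ahead of *NR1D2* (0.27) and *ARNTL* (0.24). *CLOCK* (0.15) and *CRY1* (0.15) were again low, under the median of 0.19. The *DBP* row had the smallest spread of the 8 in both groups, with SDs of 0.09 in Control and 0.10 in NASH, above those of 7.09% and 14.1% of all genes. Several of these SDs rested on 1 animal. Without Control 31 those of *NR1D1* and *ARNTL* in Control were 0.47 and 0.40 and that of the *DBP* row 0.04, and without Control 5 that of *CRY1* was 0.09. In NASH, *PER2* had an SD of 0.27 without NASH 2 and *CRY1* one of 0.08 without NASH 65.

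**Figure D2:**
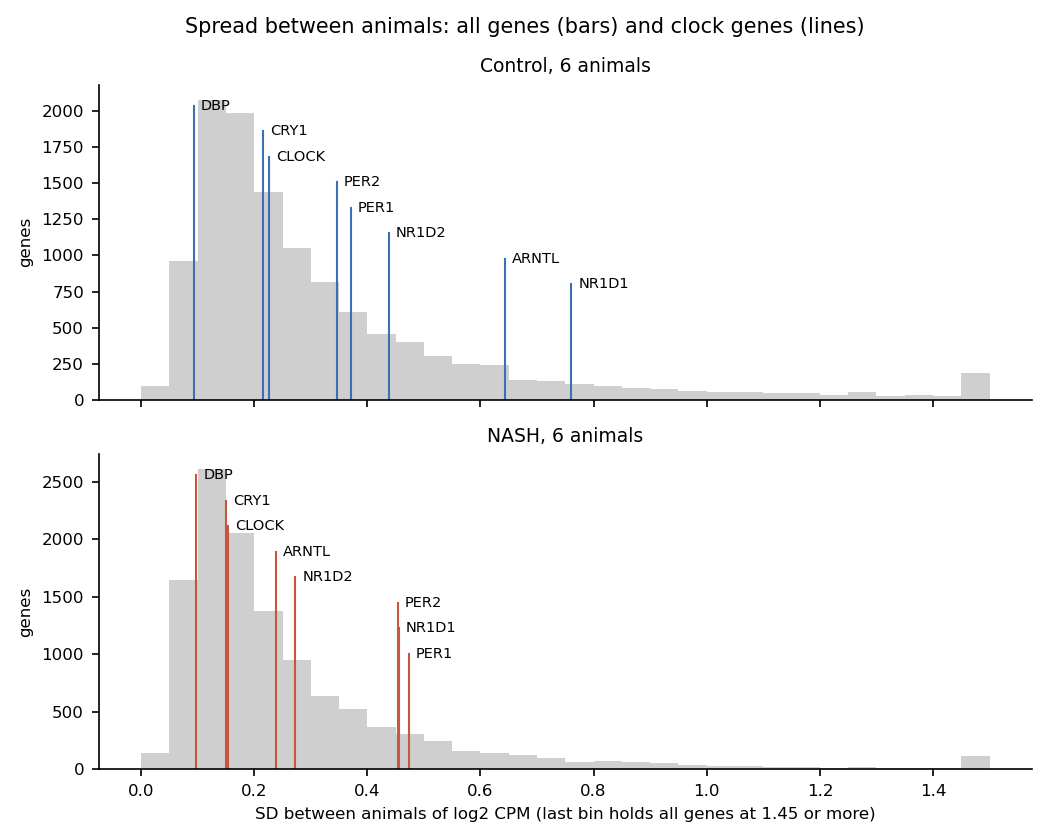
Number of genes (vertical axis) by the SD between the 6 animals of a group in log2 CPM (horizontal axis), for Control above and NASH below, with a line at each clock gene whose height carries no value. *NR1D1* and *ARNTL* lie in the right tail in Control, at 0.76 and 0.64, and in NASH *ARNTL* moves to 0.24 while *PER1*, *PER2* and *NR1D1* lie between 0.45 and 0.47.

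The difference in spread between the groups was tested for each gene by permutation of the absolute deviations from the group's median. Each animal's deviation from the median of its own group was taken once. These 12 deviations were then divided in all ways into 6 and 6 (two-sided, difference of the means). The medians were not taken anew for each division, so the p-values are approximate. *ARNTL* had the smallest p-value of the clock genes, with a mean absolute deviation of 0.50 in Control and 0.17 in NASH on the log2 scale (permutation p = 0.07576, adjusted p = 0.7548 over all genes). For *NR1D1* the deviations were 0.50 and 0.36 (permutation p = 0.5476). Of the 8 clock genes, 0 reached an unadjusted p-value under 0.05 in this test, as 7.25% of all genes did, and 0 of the 11896 genes passed after adjustment. The smallest p-value that the design allows is 0.002165.

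Within a group, the clock genes were next set against *ARNTL*, because genes of opposite phase would be ordered in opposite ways across animals at different points of the cycle. In Control, Control 31 combined the lowest *ARNTL* (7.73 CPM) with the highest *NR1D1* (60.5 CPM), and Control 5 combined 23.1 CPM of *ARNTL* with the lowest *NR1D1* (12.6 CPM). Control 10, with the highest *ARNTL* (24.0 CPM), had the second highest *NR1D1* (27.4 CPM). Pearson's r was −0.82 and Spearman's rho −0.37 over the 6 controls (exact permutation p = 0.05139 and 0.4972, adjusted p = 0.6822 for r). Without Control 31 and Control 32, the animals farthest from the median of *ARNTL*, r was −0.39 over the remaining 4, and without Control 31 alone it was −0.42, so that the relation rested on Control 31. In NASH, r was −0.78 and rho −0.66 (exact permutation p = 0.07361 for r, adjusted p = 0.9983), and without NASH 9 and NASH 2 r was −0.24, while it ran from −0.85 to −0.67 when a single NASH animal was left out.

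*CLOCK* and *ARNTL* were ordered alike across the controls, with r = 0.91 and rho = 0.77 (exact permutation p = 0.008333 for r, adjusted p = 0.5507), and r was 0.70 without Control 31 and Control 32. In NASH the same pair gave r = −0.04 and rho = −0.26, and r was −0.89 over 4 animals without NASH 9 and NASH 2. *CRY1* and *ARNTL* gave r = 0.79 and rho = 0.89 in NASH (exact permutation p = 0.05139 for r, adjusted p = 0.9983) and r = 0.43 and rho = 0.43 in Control. For the other 4 clock genes r with *ARNTL* ran from −0.69 (the *DBP* row) to 0.19 (*PER1*) in Control and from −0.57 (*NR1D2*) to 0.05 (the *DBP* row) in NASH. These values depended on few animals. Without Control 31 and Control 32 they ran from −0.76 (*PER2*) to 0.99 (the *DBP* row, whose rho over all 6 controls was 0.03). Without NASH 9 and NASH 2 they ran from −0.05 (*NR1D2*) to 0.70 (*PER2*). Before adjustment, 7.06% of all genes in Control and 3.61% in NASH had a p-value under 0.05, and 0 genes in either group passed after adjustment over the 11895 other genes, where the smallest adjusted p-values were 0.5507 and 0.9983. Before adjustment, *CLOCK* in Control was the only clock gene under 0.05 by r among the 7 relations of each group, and *CRY1* in NASH the only one by rho (exact permutation p = 0.03333).

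**Figure D3:**
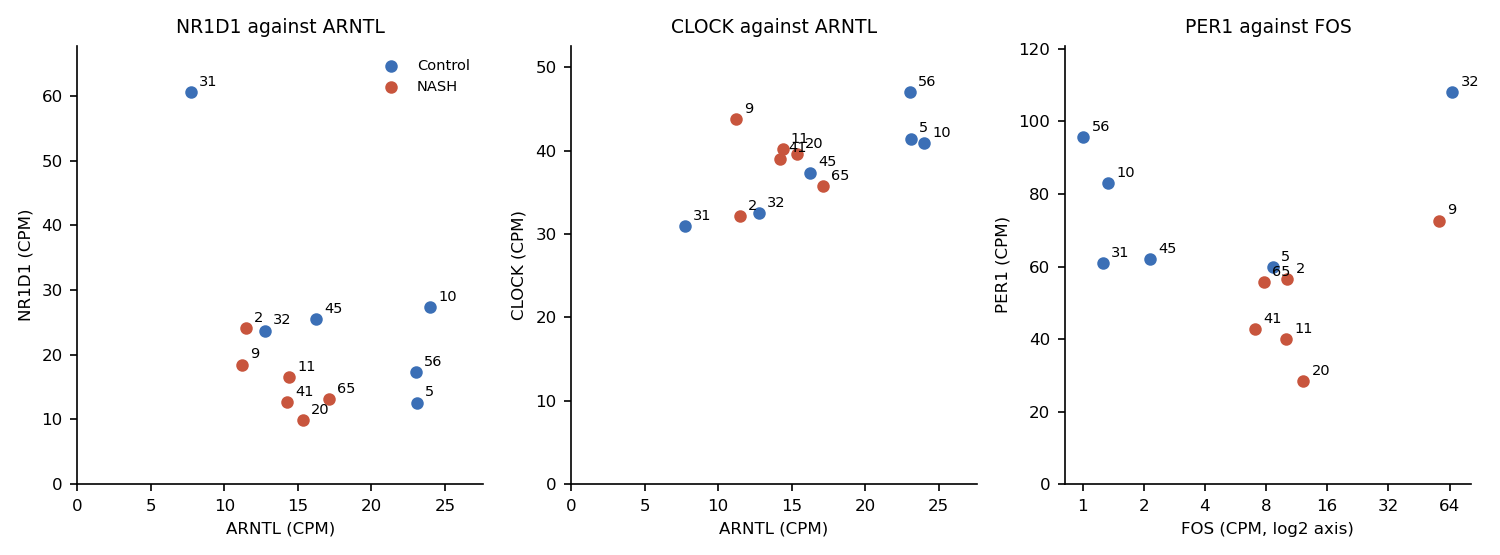
*NR1D1* and *CLOCK* against *ARNTL*, and *PER1* against *FOS*, each in CPM with a point per animal and its number beside it, on linear axes from 0 except for the log2 axis of *FOS*. Control 31 lies alone at 7.73 CPM of *ARNTL* and 60.5 CPM of *NR1D1*, and Control 32 and NASH 9 combine the highest *FOS* with the highest *PER1* of their groups.

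The genes most like *ARNTL* across all 12 animals, with each group's mean taken off, were *ASXL1* (r = 0.93), *BTG1* (0.92), *FST* (0.88), *FOSL2* (0.88) and *RHOBTB1* (0.88), and the most unlike were *DNAJC11* (−0.90), *DDX51* (−0.89), *ACAD9* (−0.88), *SLC16A13* (−0.87) and *INTS1* (−0.86). These values describe the top and the bottom of 11895 genes and carry no test. Within NASH alone *FOSL2* had r = −0.03 and *FST* 0.32, against 0.95 for both in Control. Control 31 was the lowest control for all 5 of the former and the highest control for all 5 of the latter. Among the clock genes *NR1D1* was the most unlike *ARNTL*, with r = −0.80 and place 37 from the bottom of the 11895, and *CLOCK* the most like it, with r = 0.70 and place 210 from the top. *CRY1* had r = 0.49 and the remaining members lay between −0.43 (the *DBP* row) and −0.04 (*PER1*).

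*PER1* and *PER2*, both of which fell between the groups, had r = 0.31 with each other over the 12 animals with group means taken off. *NR1D1* and *NR1D2* had r = 0.28, and *CRY1* and *NR1D1* had r = −0.60. These coefficients are descriptions over animals that share the same libraries for both genes.

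Other genes of the loop, genes of PER and CRY turnover, cofactors and output genes of the liver clock were taken from a list of 43. Of these 33 were rows of the table, 13 of them output genes. Of the 33, 14 fell, 5 rose and 14 were not called, so that 57.6% were called against 53.9% of all genes and 42.4% were lower against 26.0%. Their median log2 fold change was −0.22. With library size alone 8 fell and 14 rose.

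**Figure D4:**
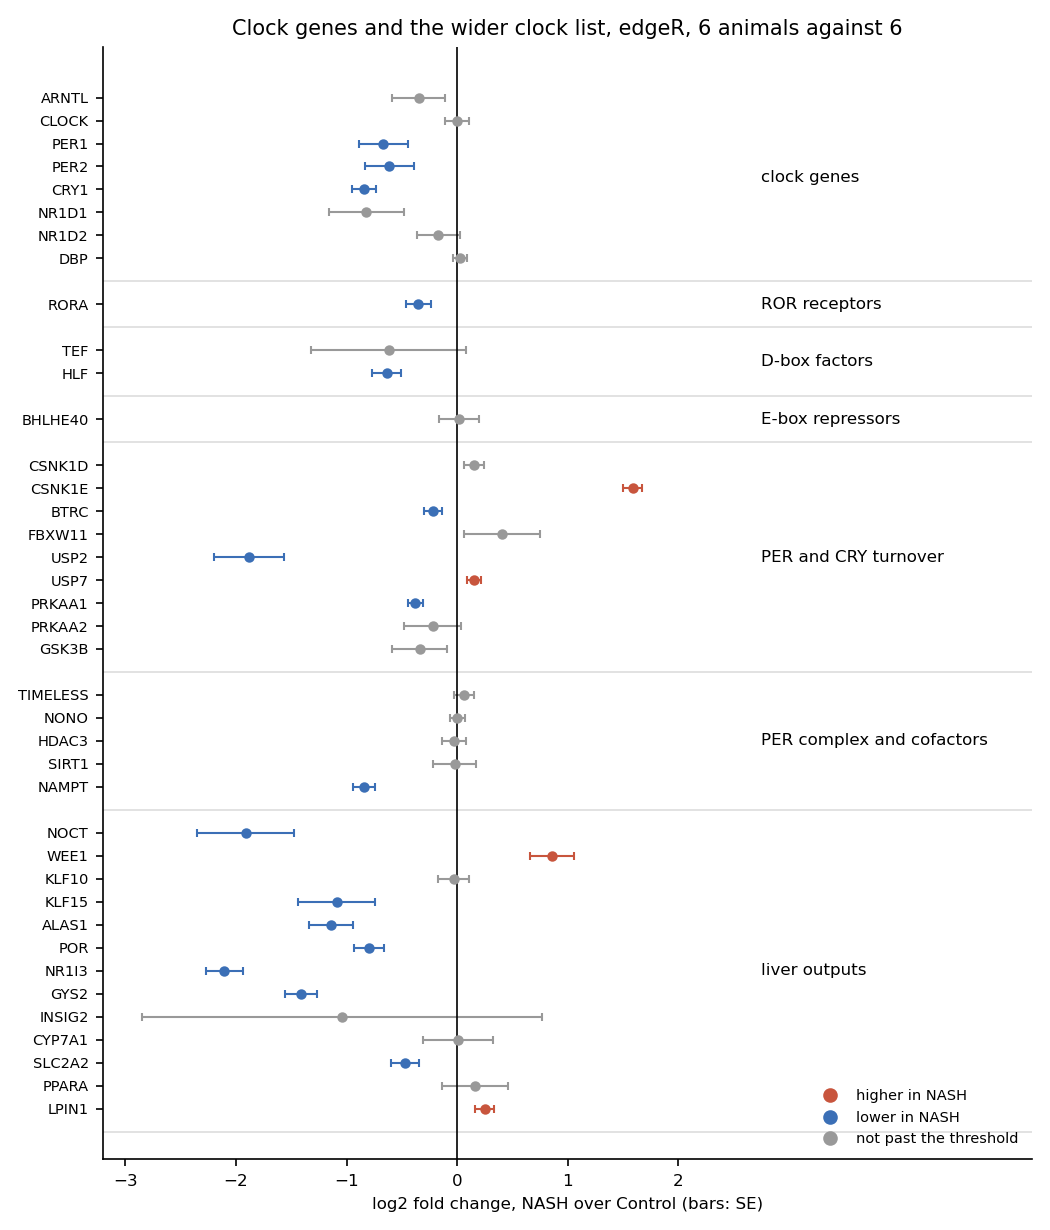
Log2 fold change, NASH over Control, of the 8 clock genes and of the genes of the wider list that are reported here, with bars for the SE of edgeR's fit and colours for the call at an adjusted p-value under 0.05. Of the clock genes *PER1*, *PER2* and *CRY1* are coloured as lower, and among the other genes *NR1I3* (−2.11) and *CSNK1E* (1.59) are the lowest and the highest of those called.

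*RORA*, which encodes a receptor that activates *ARNTL* at the element that *NR1D1* represses, had values of 7.003 to 10.7 CPM in Control and 5.95 to 7.74 CPM in NASH. It fell by 0.35 on the log2 scale (SE 0.11, edgeR adjusted p = 0.01773), but turned to 0.12 (adjusted p = 0.3745) with library size alone. *ARNTL*, its target, was not called.

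Of the D-box factors related to *DBP*, *HLF* fell, from 33.3 to 49.8 CPM in Control (median 34.5) to 21.99 to 30.96 CPM in NASH (median 24.5), a change of −0.64 on the log2 scale (SE 0.13, edgeR adjusted p = 0.00138). With library size alone *HLF* was at −0.17 and not called (adjusted p = 0.2992). *TEF* was not called, and 2 animals set its spread: it stood at 89.3 CPM in Control 45 and 64.6 CPM in NASH 9 and at 6.17 to 19.9 CPM in the other 10 animals (log2 fold change −0.62, SE 0.70). Without NASH 9 it was −1.67 and called (SE 0.54, edgeR adjusted p = 0.02256), and without Control 45 it was 0.25 (adjusted p = 0.751). *TEF* is named here because its values were seen. The E-box repressor *BHLHE40* gave a log2 fold change of 0.02.

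Genes of PER and CRY protein turnover moved in both directions. *USP2*, a deubiquitinase of clock proteins whose own transcript cycles widely, lay between 11.6 and 31.9 CPM in Control animals (median 17.6) and between 2.40 and 8.67 CPM in NASH animals (median 4.66), and fell by 1.88 on the log2 scale (SE 0.32, edgeR adjusted p = 0.0002902). The kinase gene *PRKAA1* (−0.38) and the ubiquitin ligase gene *BTRC* (−0.22) also fell, both of which turned positive with library size alone (0.10 and 0.25), *BTRC* with a call as higher (adjusted p = 0.02006). The lower call of *BTRC* held in 4 of the 12 fits that left an animal out. *USP7* (0.16), which encodes a deubiquitinase, rose. *CSNK1E*, the kinase that marks PER proteins for decay, rose by 1.59 on the log2 scale (SE 0.09, adjusted p = 7.678e-08), but its row carried a read-through symbol (TPTEP2-CSNK1E) too.

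Of the 5 genes of the PER complex and its cofactors 1 was called, a share under the 53.9% of all genes. *NAMPT*, an E-box target and the rate-limiting enzyme of NAD salvage, lay between 109.6 and 175.3 CPM in Control animals (median 133.0) and between 70.8 and 85.2 CPM in NASH animals (median 75.6). It fell by 0.84 on the log2 scale (SE 0.10, edgeR adjusted p = 1.553e-05), the same size as *CRY1*.

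Of the 13 output genes of the liver clock, 7 fell, 2 rose and 4 were not called, where 26.0% of all genes were lower and 27.9% higher. *NOCT*, which has one of the strongest rhythms in liver, lay between 5.73 and 46.2 CPM in Control animals (median 15.9) and between 3.01 and 9.58 CPM in NASH animals (median 4.49), so that the groups overlapped through Control 31, and fell by 1.91 on the log2 scale (SE 0.44, edgeR adjusted p = 0.002722). *KLF15* (−1.09), a regulator of amino acid use, *ALAS1* (−1.14), the first enzyme of haem synthesis, *POR* (−0.80), the electron donor of cytochrome P450 enzymes, and the xenobiotic receptor *NR1I3* (−2.11) also fell. So did the glycogen synthase gene *GYS2* (−1.41) and the glucose transporter gene *SLC2A2* (−0.47), of which *SLC2A2* was at 0.00 with library size alone. *KLF15* was not called with that scaling (−0.62, adjusted p = 0.1073). *WEE1* (0.86), the kinase that gates entry into mitosis, and *LPIN1* (0.25) rose.

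Genes that respond to known cues of the liver clock were read from the same libraries. Of 6 genes responsive to glucocorticoids 5 fell and 1 was not called (26.0% of all genes were lower), and their log2 fold changes had a median of −1.11. Those that fell were *TSC22D3* (−1.36), *TAT* (−1.29), *KLF9* (−1.24), *ZBTB16* (−0.97) and *DUSP1* (−0.84). The summed level of the 6 was 2244 to 4836 CPM in Control and 1121 to 2118 CPM in NASH, which did not overlap, but *TAT* made up most of it (1937 to 4329 and 919.4 to 1801 CPM). The values of *DUSP1*, *ZBTB16* and *FKBP5* overlapped between the groups. With library size alone all 5 stayed lower, of which *DUSP1* (−0.37) and *ZBTB16* (−0.50) were no longer called. They moved in the same direction as *PER1*, and their part in its difference was not tested.

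Of 11 genes responsive to feeding 3 fell, 1 rose and 7 were not called, so that 36.4% were called, under the 53.9% of all genes, and 27.3% were lower, close to the 26.0% of all genes. The gluconeogenic genes *PCK1* (−2.91) and *G6PC* (−2.16) and the kinase gene *PDK4* (−0.61) fell and *SREBF1* (1.70), a regulator of lipid synthesis, rose, and *PDK4* was not called with library size alone (−0.14, adjusted p = 0.3666). The summed level was 2231 to 4303 CPM in Control and 768.8 to 1282 CPM in NASH, in which *PCK1* (741.3 to 1991 and 92.49 to 282.0 CPM) and *G6PC* (560.9 to 865.2 and 117.6 to 188.3 CPM) had the largest part in Control. Of 7 genes responsive to temperature, 1 fell (*HSPA1A*, on a row shared with its near-identical copy *HSPA1B*) and 6 were not called. The share called was thus 14.3%, under the 53.9% of all genes, and the share lower was the same 14.3%, against 26.0%. Their sums were 646.4 to 1132 CPM in Control and 754.6 to 1087 CPM in NASH, most of it *HSPA8* (399.2 to 783.5 and 495.8 to 811.4 CPM).

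Of 6 immediate early genes *EGR1* (1.78), *ATF3* (1.37) and *NR4A1* (1.81) rose and 3 were not called (3 of 6 called, against 53.9% of all genes), with sums of 39.5 to 248.8 CPM in Control and 156.0 to 377.9 CPM in NASH. *FOS* stood at 66.1 CPM in Control 32 and 56.8 CPM in NASH 9 and at 1.01 to 12.2 CPM in the other 10 animals. The same animals, Control 32 and NASH 9, held the highest *PER1* of their groups. Without both of them *PER1* still fell, by 0.70 on the log2 scale (edgeR adjusted p = 0.01602), and *CRY1* by 0.81 (adjusted p = 0.0003721), while *PER2* was no longer called (−0.44, adjusted p = 0.1373).

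Markers of cell types differed between the groups as well. Of all genes 53.9% were called, 27.9% as higher and 26.0% as lower. Of 6 hepatocyte markers 5 fell, with a summed level of 91360 to 113200 CPM in Control and 36080 to 56850 CPM in NASH, most of it *ALB* (66360 to 85390 and 24040 to 39080 CPM). With library size alone *ASGR1* (−0.18) turned to 0.29 and *SERPINA1* (−0.64) was at −0.17 and not called. All 6 stellate cell markers rose (546.2 to 657.0 against 1060 to 2129 CPM), as did all 4 cholangiocyte markers (65.1 to 107.2 against 261.7 to 415.0 CPM) and all 3 erythroid markers (57.0 to 171.3 against 426.4 to 4524 CPM). Endothelial markers rose in 3 cases and fell in 1 of 5 (422.0 to 503.2 against 442.4 to 615.2 CPM). Among 5 macrophage markers 1 rose and 1 fell (286.1 to 509.1 against 442.3 to 623.0 CPM). Among 6 T cell markers 1 rose and 1 fell as well (56.6 to 111.1 against 33.1 to 61.2 CPM). Most of the T cell sum was *CD3E*, the marker that fell (44.96 to 99.69 and 21.94 to 48.77 CPM). *CD8A* rose (1.29) at 4.12 CPM or less, and the other 4 T cell markers were not called. In bulk tissue, fewer cells of a type and less RNA of a gene per cell cannot be told apart, and the part of cell makeup in the lower *PER1*, *PER2* and *CRY1* was not tested. The hour of sampling of the groups was not tested either, since it is not given in the sources used here.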

How the data were processed

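Stranded mRNA libraries of liver from 6 Control and 6 NASH guinea pigs were read from a single end over 75 nucleotides. The authors trimmed the reads with Trimmomatic 0.38.0, mapped them with HISAT2 2.1.0 to Cavpor3.0, ignored multimapped reads, quantified loci with StringTie 1.3.6 and deposited raw counts for 39061 rows. Per the file headers and methods, a further table deposited by them holds log2 values from the rlog transformation of DESeq2, for 11896 human orthologue symbols with a total of at least 200 counts. The count table names no symbols, so the rlog transformation was repeated, which matched every symbol to its row (largest difference 8e-07), and 1515 symbols shared a row.

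Counts of the 11896 symbols were tested with edgeR 4.0.16 in R 4.3.3 (TMM, robust glmQLFit, glmQLFTest). The SE is the absolute log2 fold change over the square root of F. Spread and correlations used log2 CPM with a prior count of 2. Correlations had exact permutation tests, and spread had a permutation of deviations from fixed group medians, which is approximate. Alternatives were RLE and upper-quartile factors, library size alone, DESeq2 1.42.0, limma-voom and rlog values with limma 3.58.1, filterByExpr, all rows with 1 count or more, a threshold of 0.01, each animal left out, rlog values or library size alone for spread and correlation, and Spearman's rho. Members and lists were chosen with earlier results of these data known. Named were all members, called genes of the wider list with its highest and lowest, the 5 genes most like and unlike *ARNTL*, and cue genes that moved with a member. In data simulated with the library sizes of the NASH comparison (11031 genes), edgeR recovered 77% of genes changed 2-fold and 96% of those changed 4-fold. There were 7.49% false calls among 187, and 0 calls in data without any change. The simulation changed a small share of genes, all above a minimum mean count, far fewer than were called in the real data. None was changed by less than 2-fold, so it does not cover differences as small as those of *PER1*, *PER2* and *CRY1*. Neither a genome of the files' build nor sequences were used here, so no coordinates are given, and values of some genes of the wider list are not reported here. Each animal is a replicate, with animal numbers that pair no samples.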

Additional observations from a re-analysis of the deposited data

Results flagged for a closer look

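*CRY1* in Control 5 (73.7 CPM) lay apart from the other 5 controls, by a gap of 0.631 of the group's range on the log2 scale, above Dixon's 95% limit for 6 samples. The *DBP* row in Control 31 (222.2 CPM) did so with a gap of 0.681 of the range. These were 2 of the 16 groups of 6 animals checked (8 genes in each group), and chance alone takes about 5% of groups past that limit. Leaving out Control 5 or Control 31 left *CRY1* called.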

How the results depend on the processing

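The count of clock genes called was 3 in the fit reported (*PER1*, *PER2* and *CRY1*) and fell to 1 (*CRY1*) with every row of at least 1 count, with a threshold of 0.01 and without Control 32. Leaving each animal out gave 1 to 4 clock genes and 16 to 18 genes of the wider list, against 19. RLE factors, limma-voom and limma on rlog values called the same 3 clock genes, upper-quartile factors and filterByExpr left out *PER2*, and DESeq2 added *NR1D1*. Leaving out Control 32 and NASH 9 together, an alternative chosen after seeing the data, gave 2 (*PER1* and *CRY1*). Library size alone called *CLOCK* and the *DBP* row higher and *CRY1* lower, and moved the median of the table to 0.48 on the log2 scale, with 7603 genes higher and 911 lower. Over the wider list it called 14 higher and 8 lower, against 5 and 14. Under it the direction turned for 11 genes of both lists, among them *ARNTL* (0.13), *NR1D2* (0.31), *RORA* (0.12), *BTRC* (0.25), *PRKAA1* (0.10) and *SLC2A2* (0.004), and all 11 moved by 0.469 to 0.481, as the median of all genes did. The log2 fold change of *CLOCK* ran from −0.052 to 0.069 when an animal was left out and was −0.081 without Control 32 and NASH 9, and that of the *DBP* row ran from −0.004 to 0.066. Small differences of the wider list lost their call when some animals were left out: *BTRC* passed in 4, *USP7* in 3 and *LPIN1* in 5 of 12 such fits. The tests of spread and of correlation with *ARNTL* could hardly pass adjustment over all genes, as their smallest possible p-values are 0.002165 and 0.001389, so their counts of 0 under the alternatives say nothing of stability. No paired analysis was possible because each animal has a number of its own. The lowest count of a clock gene in an animal was 166.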
